A study of Mus musculus with 16 samples.

Results

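The comparison set newborn mice fathered by freeze-dried sperm that had been heated against newborn mice fathered by fresh sperm, using brain RNA taken on postnatal day 1. Its members were the arrays whose titles name one of these sperm treatments, which came to 8 of the 16 arrays in the series. The heated group held 4 C57BL/6 neonates from sperm that was freeze-dried and then kept at 95 °C for 1 h. The fresh group held 4 C57BL/6 neonates from sperm that was neither dried nor heated. Freeze-drying is therefore part of the heated treatment and is absent from the fresh one, so the comparison measures drying and heating together. The remaining 8 arrays, 4 whose fathers' sperm was dried but not heated and 4 whose fathers' dried sperm received 5 Gy of X-ray irradiation, entered the model as groups of their own. Each sample was total RNA from 1 brain, labelled with Cy3 and hybridised to 1 one-colour Agilent array. The labels number the neonates without saying which share a litter, so the spread between samples may be smaller than that between unrelated litters, and p-values measure only the spread between these samples.

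A freeze-dried sperm cell no longer swims, and offspring are obtained by injecting it into an egg. The sperm brings a haploid genome, its DNA methylation and packaging, and a small amount of RNA, so the treatments act before the embryo exists and none of the assayed brain cells was itself dried or heated. At birth the mouse brain is still forming: progenitors next to the ventricles divide and release neurons, astrocytes begin to mature, and the ventricle wall turns from radial glia into ependyma, the epithelium whose motile cilia move cerebrospinal fluid.

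All levels below are log2 processed signals minus the array's own 75th percentile, so 0 is the signal that 1 probe in 4 exceeded on that array, and a difference of 1 is a doubling. Between 59.9% and 64.2% of spots were well above background on the heated arrays, against 61.1% to 63.1% on the fresh arrays, and no spot was saturated. The extraction software marked 3 of the heated and fresh arrays, heated 1, heated 4 and fresh 3, as having a quality measure to evaluate. Neuronal genes marked every sample as brain. Stmn2, a microtubule regulator of neurons, stood between 6.83 and 6.94 on the heated arrays, against 6.82 to 6.94 on the fresh arrays. The 16 arrays lay on 2 slides scanned on different days. All 4 heated arrays were on slide 2, together with fresh 3 and fresh 4, while fresh 1 and fresh 2 were on slide 1. The array position in the file headers adds a second imbalance: its row number was 2 for every heated array and 1 for every fresh array, so row and treatment cannot be told apart within these 8 arrays.

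Individual brains also differed in what tissue they held. Hoxb5, a positional gene of the hindbrain and spinal cord, measured 0.69, -7.17, 0.69 and -7.75 in heated 1 to 4, against 0.87, -7.49, 1.02 and 1.09 in fresh 1 to 4. Hoxb5 was thus at background in 2 of 4 heated and 1 of 4 fresh brains. Arrays with Hoxb5 under -4 are called low in Hox genes below. Pcp2, a Purkinje cell gene, was low in the same heated brains: heated 2 had -2.55, heated 4 had -3.73, and the 4 fresh brains had 0.86 to 1.01. Gh, the growth hormone gene of the pituitary, was well above background only in heated 1 at 2.71 and fresh 3 at 2.87. Acta1, the actin of skeletal muscle, was 1.77 in fresh 1 and below -1.28 on the other fresh and all heated arrays. The Y-linked gene Ddx3y was above background in 1 of 4 heated and 2 of 4 fresh brains. The part of these tissues in the results was not tested, except where a value without such arrays is given.

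Among genes that changed, more rose than fell in brains of the heated group. Of 26479 genes and unnamed features tested with limma in a fit of the 4 group means, 775 changed at an adjusted p (Benjamini-Hochberg) under 0.05, which is 2.93% of those tested. Among them 632 rose, or 2.39%, and 143 fell, or 0.54%. Most shifts were modest: the median log2 difference was 0.43 over the genes that rose and -0.37 over those that fell, and 28 rose and 2 fell by at least 2-fold. A RefSeq symbol could be given to 647 of the 775. Values of heated and fresh brains did not overlap for 2996 of all genes tested, 11.3% in either direction, and for 754 of the 775 that passed. For 722 genes, 2.73%, all 4 heated values also lay beyond the 12 other arrays, and 344 of those were among the 775. The median over all genes was 0.03, and -0.02 with median scaling, so its sign depends on the scaling. Leaving out 1 array at a time gave between 254 and 1126 changed genes. The count was 443, 254, 412 and 351 without heated 1, 2, 3 and 4, and 406, 291, 1126 and 721 without fresh 1, 2, 3 and 4, so leaving out fresh 1, fresh 2 or any single heated array lowered it by over 1.5 times.

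**Figure D1:**
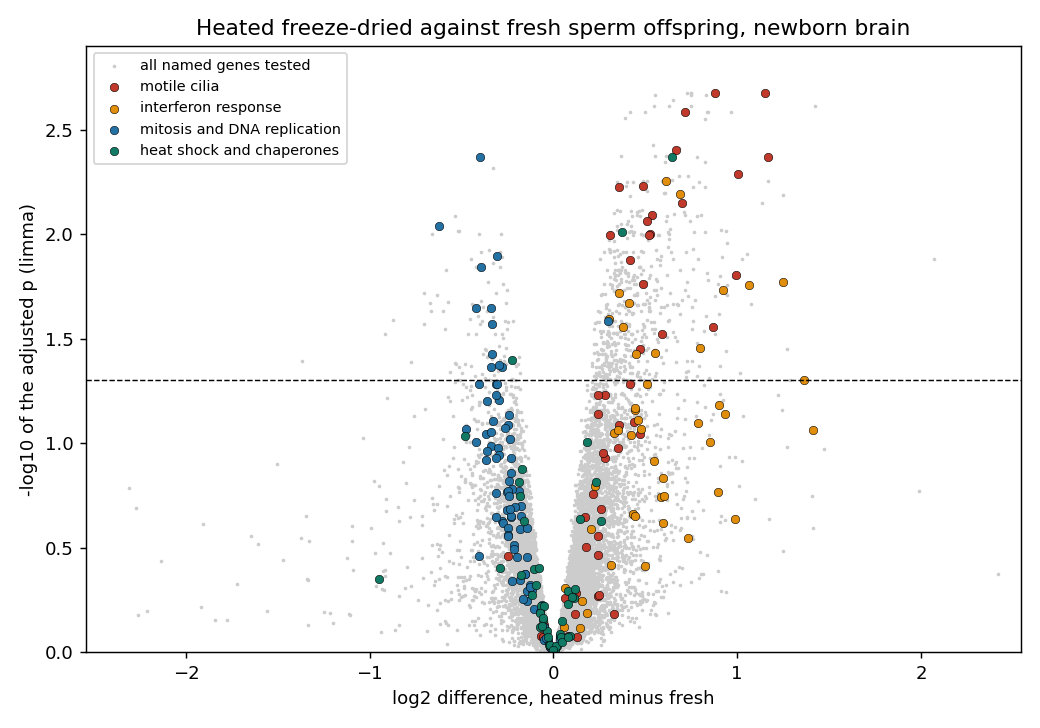
Each point is a named gene, placed by its log2 difference (heated minus fresh, horizontal axis) and the -log10 of its adjusted p from limma (vertical axis), with members of 4 groups of lists in colour and the dashed line at an adjusted p of 0.05. Most motile cilia genes and all interferon genes lie to the right of 0, most mitosis and DNA replication genes lie to the left with 1 on the right above the line, and most heat shock genes lie near 0.

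Motile cilia genes were the list with the largest share of members that rose. Of 58 listed genes 53 were on the array and 51 could be tested, and 20 of these rose and 0 fell, or 39.2% against 2.93% of all genes. Their median log2 difference was 0.31, against 0.03 over all genes, and 45 of the 51 had a higher mean in heated brains. Ccdc153, a subunit of the complex that regulates axonemal dynein, measured -1.03, -0.48, -0.96 and -0.53 in heated 1 to 4, against -1.94, -1.81, -1.93 and -1.94 in fresh 1 to 4. The groups were clearly apart, and heated 2 and heated 4, the brains low in Hox genes, were the highest. Ccdc153 was 2.22-fold higher in heated brains, a log2 difference of 1.15 ± 0.13 (SE, n = 4 each), with an adjusted p of 0.0021 from limma. In a fit without the arrays low in Hox genes its difference was 0.94.

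Tmem212, a membrane protein gene that marks ependyma, stood at -1.28, -0.95, -1.47 and -1.06 on the heated arrays, against -2.61, -2.57, -2.14 and -2.12 on the fresh arrays. No heated value fell within the fresh range, and its log2 difference was 1.17 ± 0.17 (SE, adjusted p = 0.00427, limma). Iqca, an ATPase of the same dynein regulatory complex as Ccdc153, gave -2.07, -1.66, -2.12 and -1.86 in heated brains and -2.86, -2.75, -2.82 and -2.80 in fresh brains, a 1.84-fold increase. Other members that rose were parts of the ciliary motor or its frame. They included the inner-arm dynein heavy chains Dnah10 (log2 difference 0.99) and Dnah2 (0.59), the dynein light chains Dnali1 (0.72) and Dynlrb2 (0.67) and the rootletin relative Crocc2 (1.00). With slide as a block Dnah10 and Dnah2 no longer passed (adjusted p = 0.0616 and 0.105), and with slide and array row as blocks the difference of Dnah10 was 0.15. Foxj1, the transcription factor that switches on motile cilia genes, measured 0.42, 0.50, 0.33 and 0.57 in heated brains, against 0.19, 0.28, 0.12 and 0.16 in fresh brains. Its groups did not overlap, yet its log2 difference of 0.27 ± 0.09 (SE) did not pass, at an adjusted p of 0.111. As these are whole-brain samples, more ependymal cells and more ciliary RNA per cell cannot be told apart.

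Ciliary genes share a promoter element, the X-box, an inverted repeat bound by RFX factors, which act together with Foxj1. Promoter windows from RefSeq (GRCm38.p6), running from 250 bases before to 50 bases after each start site, were searched for it on both strands, allowing 0 to 3 bases between its arms. It was present in 25% of the 44 tested cilia genes that have a window, in 21.1% of the 19 that rose, and in 28% of the 25 that did not pass. Among all 12629 tested genes with a window the share was 2.03%, and among all 27025 genes in the table it was 1.75%. Of the genes that rose, 18 of 416 held the element (4.33%), and of those that fell, 0 of 83. Windows of 3 genes that rose are shown to let the element be seen in place, lower case with the X-box in capitals. They are Iqca at chr1:90153387-90153686 (minus strand), Dynlrb2 at chr8:116504765-116505064 (plus strand) and Fam166c, which is not on the cilia list, at chr5:30465827-30466126 (plus strand).
Iqca: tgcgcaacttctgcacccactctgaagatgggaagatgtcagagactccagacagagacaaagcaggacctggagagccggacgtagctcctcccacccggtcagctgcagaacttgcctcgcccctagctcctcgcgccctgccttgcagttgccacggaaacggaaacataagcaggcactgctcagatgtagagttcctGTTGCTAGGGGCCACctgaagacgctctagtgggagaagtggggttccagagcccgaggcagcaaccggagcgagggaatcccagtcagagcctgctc
Dynlrb2: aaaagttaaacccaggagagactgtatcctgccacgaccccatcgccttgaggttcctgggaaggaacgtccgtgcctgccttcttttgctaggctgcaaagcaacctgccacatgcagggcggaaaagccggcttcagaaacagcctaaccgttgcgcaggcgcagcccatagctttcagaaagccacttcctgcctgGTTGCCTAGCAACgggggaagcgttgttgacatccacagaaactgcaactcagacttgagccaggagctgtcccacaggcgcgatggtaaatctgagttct
Fam166c: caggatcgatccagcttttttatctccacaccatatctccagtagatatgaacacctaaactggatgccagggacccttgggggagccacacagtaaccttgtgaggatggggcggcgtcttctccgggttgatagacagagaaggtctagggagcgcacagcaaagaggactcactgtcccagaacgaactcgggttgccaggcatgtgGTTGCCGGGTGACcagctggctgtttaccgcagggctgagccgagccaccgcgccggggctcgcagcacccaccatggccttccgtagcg
Matches began 48 bases before the start site in Iqca, 51 in Dynlrb2 and 40 in Fam166c. A match describes these letters and is not a binding site.

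Of genes off the list, named for a small p on slide 2, Morn5, which encodes a MORN repeat protein, measured -0.02, 0.10, -0.16 and 0.01 in heated brains, against -0.94, -0.77, -0.65 and -0.63 in fresh brains, with no overlap. Its log2 difference was 0.73 ± 0.08 (SE, adjusted p = 0.0021, limma). Tsnaxip1 (0.76) and Odf3b (0.65) were named the same way and also rose. Fam166c and Hoatz were named for the gap between their heated values and all other arrays. The log2 difference of Hoatz was 0.72 and that of Fam166c 0.83 ± 0.11 (SE, adjusted p = 0.00281), but a second Fam166c probe differed by 0.10. Fbxl13 (1.17) and Nme9 (1.07) passed as well, but each was above background on 4 heated arrays and on 1 fresh array. Their fresh levels are not fully measured, and both met the filter in the heated group, where they are high. Their differences are therefore descriptions.

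Genes of the interferon response, which encode antiviral proteins and the machinery that presents peptides on MHC class I, formed the list with the highest median. Of 51 listed 45 were tested: 13 rose, 0 fell (28.9% against 2.93% of all genes), and all 45 had a higher mean in heated brains. Over the 45 the median log2 difference was 0.50, against 0.03 over all genes. Ifi27l2a, an interferon-induced membrane protein, measured 0.48, 0.16, 0.17 and 0.16 in heated 1 to 4, against -1.31, -1.13, -1.01 and -0.57 in fresh 1 to 4. It was 2.38-fold higher in heated brains (log2 difference 1.25 ± 0.25, SE, adjusted p = 0.017, limma). The interferon-induced GTPase gene Tgtp2 was tight in the heated group, at -2.88, -2.86, -2.76 and -2.79, against -3.94, -3.84, -4.26 and -3.52 in the fresh group. Its groups did not overlap and its log2 difference was 1.06 ± 0.21 (SE, adjusted p = 0.0175).

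Oas1a, which makes the oligoadenylates that activate RNase L, rose by a log2 difference of 0.92, and Ifi27 by 0.69. Tap2, a subunit of the peptide transporter that feeds MHC class I, rose by 0.61 ± 0.09 (SE, adjusted p = 0.00554). Its partner Tap1 was 0.36 higher (adjusted p = 0.0191), but a second probe for Tap1 was 0.13 lower in heated brains. Ifit1, a sensor of foreign RNA caps, was above background on 4 heated and 2 fresh arrays, and its log2 difference of 1.37 lay at the threshold (adjusted p = 0.0497). On slide 2 alone all 45 members were again higher, with a median of 0.42. Set against irradiated brains, which share the heated arrays with this comparison, the median difference was 0.03 (heated minus irradiated).

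**Figure D2:**
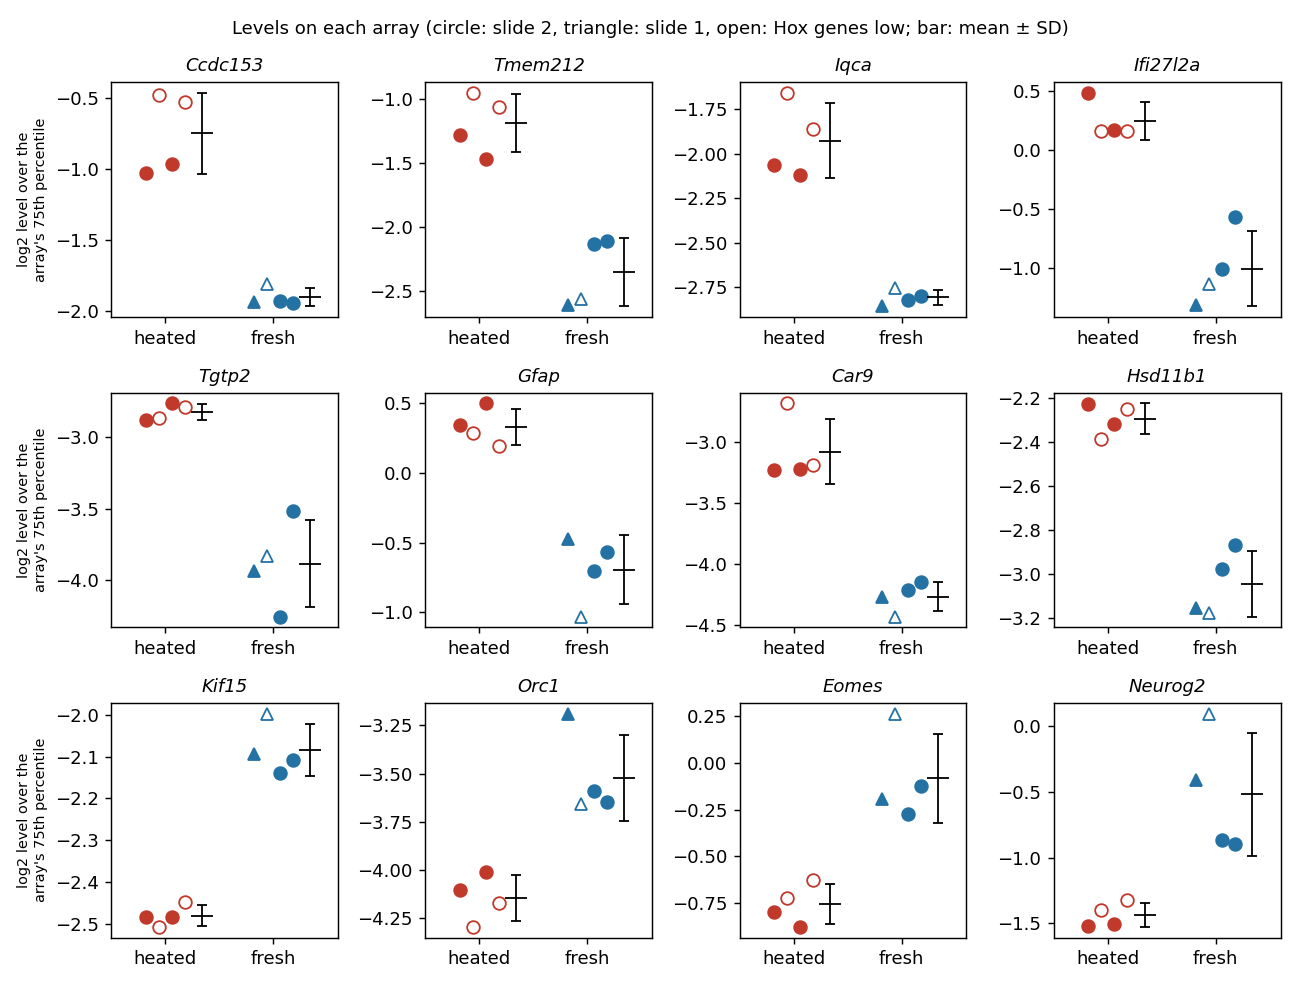
Levels of 12 genes on each heated (left, red) and fresh (right, blue) array, in log2 units over the array's 75th percentile, with circles for slide 2, triangles for slide 1, open symbols for brains low in Hox genes and a bar for the group mean ± SD (n = 4). For each gene the heated values lie wholly above (first 8 panels) or below (last 4 panels) the fresh values, and for Neurog2 the fresh arrays of slide 2, at -0.86 and -0.90, are nearer to the heated ones than those of slide 1.

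Some glial and vascular genes rose. Gfap, the intermediate filament of maturing astrocytes, measured 0.35, 0.29, 0.50 and 0.20 in heated 1 to 4, against -0.47, -1.03, -0.71 and -0.56 in fresh 1 to 4. No heated value lay in the fresh range. It was 2.04-fold higher in heated brains, with a log2 difference of 1.02 ± 0.19 (SE, adjusted p = 0.0132, limma). Of 24 astrocyte genes tested, 3 rose (Gfap, Agt and Clu) and 0 fell, 12.5% against 2.93% of all genes, and all 24 had a higher mean in heated brains. Agt, the angiotensinogen gene, had a log2 difference of 0.94, and Clu, which encodes the secreted chaperone clusterin, one of 0.34. The call of Agt was lost with slide as a block (adjusted p = 0.135). The astrocyte median was 0.29, but 0.14 on slide 2 alone. The fresh brains of slide 2 exceeded those of slide 1 by a median of 0.31 over these genes.

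Microglia, the resident macrophages of the brain, contributed 5 genes that rose of 24 tested, with 0 that fell, or 20.8% against 2.93% of all genes. The median log2 difference was 0.17, but 0.05 with slide and array row as blocks, and 3 of the 24 rose with slide as a block. The 5 genes were the growth factor receptor Csf1r (0.45), the lipid receptor Trem2 (0.38), the purine receptor P2ry12 (0.36), the protease Ctss (0.35) and Ly86 (0.45). Of 29 endothelial and pericyte genes 4 rose and 0 fell: the VEGF receptors Kdr (0.34) and Flt1 (0.42), von Willebrand factor Vwf (0.63) and the efflux pump Abcb1a. That is 13.8% against 2.93% of all genes. Of the 29, 17 had a higher and 12 a lower mean in heated brains, and the list median was 0.06. Flt1 did not pass with slide as a block (adjusted p = 0.144, limma). Cxcl12, a chemokine of vessels and meninges, measured 3.12, 3.65, 3.49 and 3.09 in heated brains, against 2.45, 2.80, 2.50 and 2.62 in fresh brains, and all 4 heated values lay above every other array of the series. Its log2 difference was 0.75, but that of a second Cxcl12 probe was 0.15. Pdgfra, the receptor that marks oligodendrocyte precursors, was the single riser (0.34) among 18 oligodendrocyte lineage genes, 5.56% against 2.93% of all genes. With slide as a block 0 of the 18 rose. That list's median was 0.12, but -0.003 with slide and array row as blocks. Among 22 choroid plexus genes the one that rose was Slc13a4, a sulphate transporter (0.41), 4.5% against 2.93% of all genes. Each of these 2 shares rests on 1 gene.

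Genes of dividing cells moved the other way. Of 48 mitosis genes 7 fell, among them Cdc20, Cdca8, Cenpa, Kif15, Kif2c and Mki67, and 1 rose, 16.7% against 2.93% of all genes. With slide as a block 2 fell and 0 rose. Of the 48, 47 had a lower mean in heated brains. The list's median was -0.25, against 0.03 over all genes. Kif15, a kinesin of the mitotic spindle, measured -2.48, -2.51, -2.49 and -2.45 in heated 1 to 4, against -2.093, -1.997, -2.139 and -2.108 in fresh 1 to 4. Replicates agreed closely for this gene, and the gap between the groups exceeded the spread of either. Its log2 difference was -0.40 ± 0.06 (SE, adjusted p = 0.00427, limma), so fresh brains had 1.32 times the heated level. Mki67, the proliferation antigen Ki-67, stood at 2.21, 1.98, 2.25 and 2.03 in heated brains, against 2.42, 2.57, 2.33 and 2.33 in fresh brains (log2 difference -0.29, adjusted p = 0.0423, and 0.137 with slide as a block). The exception was Pttg1, which encodes securin, at 0.30 (adjusted p = 0.0259).

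Of 39 replication genes 4 fell and 0 rose, 10.3% against 2.93% of all genes, and 36 had a lower mean in heated brains, with a median of -0.23. Orc1, a subunit of the origin recognition complex, measured -4.11, -4.30, -4.01 and -4.17 in heated 1 to 4, against -3.19, -3.66, -3.59 and -3.65 in fresh 1 to 4. It fell by 0.62 on the log2 scale, without overlap (adjusted p = 0.00911, limma). Mcm2 of the replicative helicase (-0.42), the histone chaperone subunit Chaf1a (-0.31) and the ribonucleotide reductase subunit Rrm1 (-0.28) fell as well. Clspn, the fork protein claspin, was not well above background on any heated array but was on 3 of 4 fresh arrays. Taking the dimmest well-measured signal as the floor, it was at least 1.32-fold lower in heated brains. This bound is a description and no p is given, as the heated values were not well measured.

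Arhgap11a (-0.63) and Mxd3 (-0.45), which are not on these lists, fell too.

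Some transcription factors of progenitors and newborn neurons also fell. Eomes (Tbr2), expressed in intermediate progenitors of the cortex, measured -0.80, -0.72, -0.88 and -0.63 in heated 1 to 4, against -0.19, 0.26, -0.27 and -0.12 in fresh 1 to 4. Heated values were all lower, and the log2 difference was -0.67 ± 0.14 (SE, adjusted p = 0.0214, limma). Neurog2, a proneural factor, was -1.52, -1.40, -1.50 and -1.32 in heated brains, against -0.41, 0.10, -0.86 and -0.90 in fresh brains. Its log2 difference was -0.92, but -0.56 on slide 2 alone and 0.09 with slide and array row as blocks, so its direction depends on the fit. Insm1, a zinc finger factor of newborn neurons, fell by 0.44 on the log2 scale. In the list of 27 neural progenitor genes tested, 3 fell and 1 rose, the Notch target Hes5 (0.26), 14.8% against 2.93% of all genes. With slide as a block 0 of the 27 passed: the adjusted p was 0.0772 for Eomes, 0.0515 for Insm1, 0.117 for Neurog2 and 0.0781 for Hes5. The list median was -0.11, and -0.01 with slide and array row as blocks.

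The Igf2bp family, RNA-binding proteins abundant in fetal tissue, also fell. Igf2bp2 stood at -0.91, -0.85, -0.94 and -0.97 in heated brains, against -0.28, -0.37, -0.62 and -0.70 in fresh brains, and its 4 heated values lay below every other array. Log2 differences were -0.46 for Igf2bp1, -0.42 for Igf2bp2 and -0.41 for Igf2bp3, with adjusted p of 0.03, 0.0302 and 0.0141 from limma. In the fit with slide and array row as blocks the difference of Igf2bp1 was -0.02.

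Several regional transcription factors fell, and for some of them the brains low in Hox genes stood apart. Ebf2 measured -0.29, -1.15, -0.21 and -0.84 in heated 1 to 4, against 0.13, 0.11, 0.00 and 0.09 in fresh 1 to 4 (log2 difference -0.71, adjusted p = 0.0271, and 0.0778 with slide as a block). Within the heated group, heated 2 and heated 4 were the lowest for Ebf2, as they were for Onecut3 (-0.66) and Uncx (-0.56). Dbx1, a factor of ventral progenitors, fell by 0.78 on the log2 scale. In fresh 2, the fresh brain low in Hox genes, Ebf2 was not the lowest. Over 26 cerebellar genes, however, the mean level was 0.19 in fresh 2, against -0.63 in heated 2 and -0.47 in heated 4. These brains thus differed in more than Hox genes, and the part of this in Ebf2 was not tested. Among 29 thalamus and midbrain factors Foxa2 (-0.31) and Irx2 (-0.54) fell, 6.90% against 2.93% of all genes, and 0 of the 29 passed with slide as a block. In the list 28 had a lower mean, and the median was -0.21. Hox genes themselves passed no test, with 0 of 13 called. Their median was -1.34 with all arrays and -0.09 without those low in Hox genes.

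Ddn, the postsynaptic protein dendrin, measured -0.11, 0.30, -0.06 and 0.23 in heated 1 to 4, against -0.79, -0.63, -0.78 and -0.78 in fresh 1 to 4, and was 1.78-fold higher in heated brains (adjusted p = 0.00216, limma). Of 45 synapse genes 3 rose and 0 fell, and those that rose included the calcium sensor Syt1 (0.25) and the kinase subunit Camk2b (0.32). That is 6.67% against 2.93% of all genes, and 1 of the 45 passed with slide as a block. The list median was 0.13, but -0.02 with slide and array row as blocks. Immediate early genes, which respond within minutes to neuronal activity, had 5 of 33 that rose and 0 that fell, 15.2% against 2.93% of all genes. With slide as a block 0 of the 33 passed. The 5 genes that rose were Egr4 (0.90), Nr4a1 (0.52), Egr3 (0.50), Ier3 (0.41) and Nr4a2 (0.38). The list's median was 0.22, but 0.10 on slide 2 alone. Against freeze-dried brains the heated median was 0.02, and against irradiated brains -0.06.

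Among hypothalamic genes, Oxt, the oxytocin precursor, measured -0.67, -0.25, -0.65 and -0.43 in heated brains, against -1.199, -0.995, -1.349 and -1.305 in fresh brains (log2 difference 0.71, adjusted p = 0.0186). A second Oxt probe differed by 0.29. Trh, the thyrotropin-releasing hormone precursor, rose by 0.56, but did not pass with slide as a block (adjusted p = 0.108, limma). Hmx2 fell. In the list of 23 hypothalamic genes tested, 2 rose and 1 fell, where the share over all genes was 2.93%. With slide as a block 1 of the 23 rose and 1 fell. Hdc, the enzyme that makes histamine, was -0.67, -0.42, -0.79 and -0.59 in heated brains, against -1.47, -1.41, -1.40 and -1.51 in fresh brains, with a log2 difference of 0.83 (adjusted p = 0.0247, and 0.0594 with slide as a block).

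Genes of the hypoxia response included 8 that rose and 0 that fell of 33 tested, 24.2% against 2.93% of all genes. The list's median log2 difference was 0.17. Car9, a membrane carbonic anhydrase, measured -3.24, -2.69, -3.22 and -3.19 in heated 1 to 4, against -4.27, -4.43, -4.22 and -4.15 in fresh 1 to 4. It was 2.27-fold higher in heated brains (adjusted p = 0.00427, limma), yet a second Car9 probe was 0.33 lower, and the probes disagree. The glycolytic enzymes Aldoa (0.33) and Ldha (0.22), the vasodilator peptide adrenomedullin Adm (0.77) and Epas1 (0.30), which encodes HIF-2 alpha, rose too. On slide 2 the median of the list was 0.15, and with slide and array row as blocks it was 0.24.

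Glucocorticoid-responsive genes had 5 risers of 23 and 0 that fell, 21.7% against 2.93% of all genes, but 1 of the 23 rose with slide as a block. The transcription factor Klf9 measured -0.09, 0.23, -0.12 and 0.17 in heated brains, against -0.67, -0.77, -0.37 and -0.53 in fresh brains (log2 difference 0.63, adjusted p = 0.00944, limma). Mt1, a metallothionein, differed by 0.67, but by 0.30 on slide 2 alone, and did not pass with slide as a block (adjusted p = 0.0909). Fresh 1 and fresh 2 had 4.11 and 3.85, and fresh 3 and fresh 4 had 4.74 and 4.71. Hsd11b1, the enzyme that regenerates active glucocorticoid inside cells, was not on this list and showed one of the steadiest increases. It measured -2.23, -2.39, -2.32 and -2.25 in heated 1 to 4, against -3.16, -3.18, -2.98 and -2.87 in fresh 1 to 4. That is 1.68-fold higher in heated brains, with a log2 difference of 0.75 ± 0.08 (SE, adjusted p = 0.0021) and 0.63 on slide 2.

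Heat shock, DNA repair and p53 target genes were examined as lists too. Of 45 heat shock and chaperone genes 2 rose and 1 fell, 6.67% against 2.93% of all genes, and the median was -0.02. Hspa1a, a heat-inducible Hsp70, measured 1.25, 1.22, 1.36 and 1.02 in heated 1 to 4, against 1.28, 1.44, 1.27 and 1.32 in fresh 1 to 4, and its ranges overlapped (log2 difference -0.11 ± 0.09, SE, adjusted p = 0.53, limma). Its near-identical neighbour Hspa1b was -1.66, -1.63, -1.49 and -1.92 in heated brains, against -1.29, -0.98, -1.27 and -1.24 in fresh brains. The difference of -0.48 did not pass (adjusted p = 0.092), and the probes of such similar genes may cross-hybridise. The members that passed were the small heat shock protein Hspb3 (0.64), the Hsp70 relative Hspa2 (0.37) and the chaperonin subunit Cct3 (-0.23).

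DNA damage and repair genes had 2 that fell of 52, among them Parp1 (-0.37), a sensor of strand breaks, and 0 that rose, 3.85% against 2.93% of all genes. Of 29 p53 targets 1 fell, Trp53inp1, and 0 rose, 3.45%. Both shares are near that of all genes. Cdkn1a, the cell-cycle inhibitor p21, measured 1.24, 1.24, 1.34 and 1.19 in heated brains, against 1.37, 1.35, 1.14 and 1.24 in fresh brains, with overlapping ranges (log2 difference -0.03 ± 0.08, SE). Mdm2, the ubiquitin ligase of p53, differed by -0.12 ± 0.08 (SE, adjusted p = 0.466). No apoptosis gene of 28 passed, nor any of 30 antioxidant, 52 ribosomal protein or 48 respiratory chain genes, in this fit. The share over all genes was 2.93%, at which lists of this size may hold none.

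Imprinted genes, which are expressed from 1 parental copy according to DNA methylation set in the germ line, had 1 that fell of 41 and 0 that rose, 2.44% against 2.93% of all genes. That gene was Dio3, which inactivates thyroid hormone, at -3.05, -2.89, -3.04 and -2.86 in heated 1 to 4, against -2.73, -2.57, -2.53 and -2.40 in fresh 1 to 4 (log2 difference -0.40 ± 0.09, SE, adjusted p = 0.0268, limma). The paternally expressed growth factor Igf2 measured 2.72, 2.66, 2.62 and 2.59 in heated brains, against 2.74, 2.66, 2.84 and 2.62 in fresh brains, and the ranges overlapped. H19, the maternally expressed RNA beside it, differed by -0.24 ± 0.08 (SE) and did not pass (adjusted p = 0.139), although its groups did not overlap. Of 41 writers and readers of DNA methylation and repressive chromatin, Ezh2, the H3K27 methyltransferase, fell (-0.29), and no other passed.

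Dlx4, a homeobox gene, measured -3.81, -3.48, -4.18 and -3.78 in heated 1 to 4, against -5.09, -5.73, -5.01 and -5.14 in fresh 1 to 4, where it was not well above background on any array. It was at least 2.52-fold higher in heated brains. Gm1966 was likewise well above background on all heated arrays and on no fresh array, and was at least 2.26-fold higher. A gene must be measured throughout 1 group to be tested, and both met this in the heated group where they are high, so these bounds are descriptions and no p is given. Akr1c18, a steroid reductase, had a log2 difference of 1.25 and was above background on 4 heated and 3 fresh arrays. Mas1, a receptor for angiotensin fragments, measured -3.47, -2.78, -3.64 and -3.01 in heated brains, against -4.27, -4.65, -4.49 and -4.03 in fresh brains, with a log2 difference of 1.14 ± 0.18 (SE, adjusted p = 0.00706).

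Among genes that passed, the widest decrease was that of Cmtm2b, a chemokine-like transmembrane gene, at -4.06, -3.38, -4.10 and -4.62 in heated 1 to 4, against -2.88, -1.71, -3.11 and -2.97 in fresh 1 to 4. Its log2 difference of -1.37 ± 0.33 (SE) passed with an adjusted p of 0.0406, but not with slide as a block (adjusted p = 0.152). Xkr5 also fell (-0.57), but was above background on only 1 heated array, and a second Xkr5 probe was 0.33 higher. Musk, the receptor kinase of the neuromuscular junction, measured -2.93, -3.96, -3.93 and -4.72 in heated brains, against -5.14, -6.04, -4.37 and -5.89 in fresh brains, where it was well above background on 2 of 4 arrays. Its difference did not pass (adjusted p = 0.106), and its fresh level is not fully measured. Among 17 cartilage and bone genes 3 rose and 1 fell, 23.5% against 2.93% of all genes, and 1 rose and 1 fell with slide as a block. Hapln1 (0.91), a linker of the hyaluronan matrix, Runx2 (0.72) and Spp1 (0.66) rose, and the collagen gene Col2a1 fell (-0.42).

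With slide as a block, 406 genes changed (1.53%), 355 up and 51 down, and 335 of them were among the 775; all 775 kept their sign. Of the 95 changed genes given here with values, 45 did not pass in that fit. In that fit 19 of 51 cilia genes, 11 of 45 interferon genes and 7 of 33 hypoxia genes rose, while 2 of 48 mitosis genes and 2 of 39 replication genes fell. In the same fit 0 immediate early, 0 neural progenitor and 0 thalamus and midbrain genes passed. Comparing the heated arrays with the 2 fresh arrays of the same slide, in a fit of the 8 arrays of slide 2, left 0 genes at an adjusted p under 0.05 with limma, a smallest adjusted p of 0.0792 and 3622 genes at an unadjusted p under 0.05. Set against fresh 1 and fresh 2 of slide 1, the heated arrays gave 3183 changed genes, and set against fresh 3 and fresh 4 of slide 2 they gave 15, in the fit over all 16 arrays. On slide 2 alone the 632 genes that rose had a median of 0.35 and the 143 that fell one of -0.30. The fits here and below reuse arrays by which the 775 were chosen. Kept signs and medians of the 775 are therefore partly fixed by that choice.

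Array row could be separated from treatment only through the other 2 groups, which held arrays in both rows. With slide and array row as blocks, an alternative chosen after the data were seen, 0 genes passed (smallest adjusted p 0.31, with 2073 genes at an unadjusted p under 0.05). Of the 775 genes 769 kept their sign in that fit, with medians of 0.30 for those that had risen and -0.22 for those that had fallen, while the median standard error grew to 0.14, against 0.09 without the blocks. Among genes given with values, differences were smaller in that fit for Ifi27l2a (0.64), Gfap (0.49), Oas1a (0.385), Tmem212 (0.52), Car9 (0.64) and Ccdc153 (0.95). They were larger for Adm (1.15) and Hdc (1.34). List medians in that fit were 0.34 for interferon, 0.23 for cilia, -0.08 for mitosis and -0.06 for replication genes, and 0.03 for astrocytes. Leaving out the 4 arrays low in Hox genes, also chosen afterwards, likewise left 0 genes (smallest adjusted p 0.0666, 2527 at an unadjusted p under 0.05), with all 775 signs kept and medians of 0.37 and -0.32. The cilia median was then 0.29 and the interferon median 0.41.

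**Figure D3:**
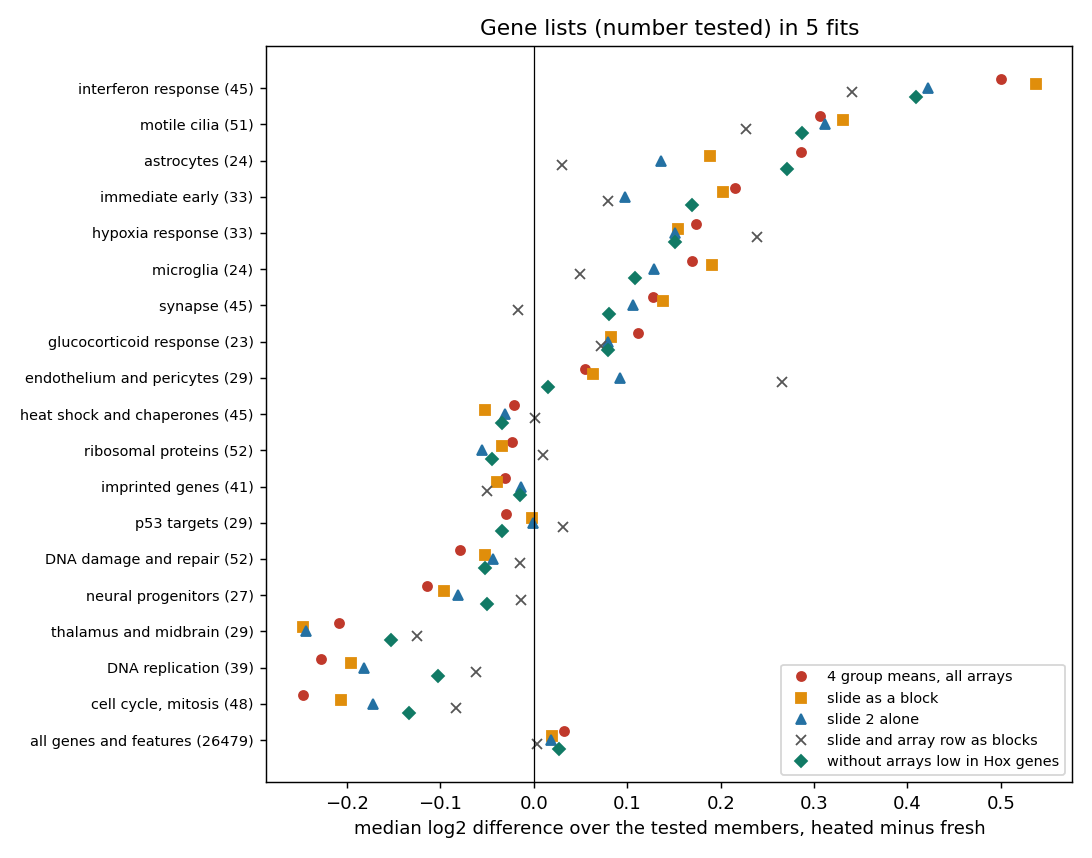
Median log2 difference (heated minus fresh, horizontal axis) over the tested members of 18 lists and over all genes, in 5 fits shown by colour and shape, with the number of genes tested beside each name. Interferon and cilia medians stay right of 0 and mitosis and replication medians left of 0 in each fit, whereas those of synapse, p53, heat shock and ribosomal genes cross 0.

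Set beside the other groups, which share the heated arrays with this comparison, heated brains had a cilia median that was 0.30 against freeze-dried and 0.15 against irradiated brains. The mean level of the 51 cilia genes lay between -1.03 and -0.90 on the heated arrays, against -1.38 to -1.25 on the fresh arrays. For mitosis genes the medians were -0.28 against freeze-dried and -0.19 against irradiated brains, and the mean level of the 48 genes lay between -0.08 and 0.06 in heated brains, against 0.18 to 0.43 in fresh brains, where fresh 2 was the highest. Over the 632 genes that rose, the median difference was 0.35 against freeze-dried and 0.22 against irradiated brains.

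**Figure D4:**
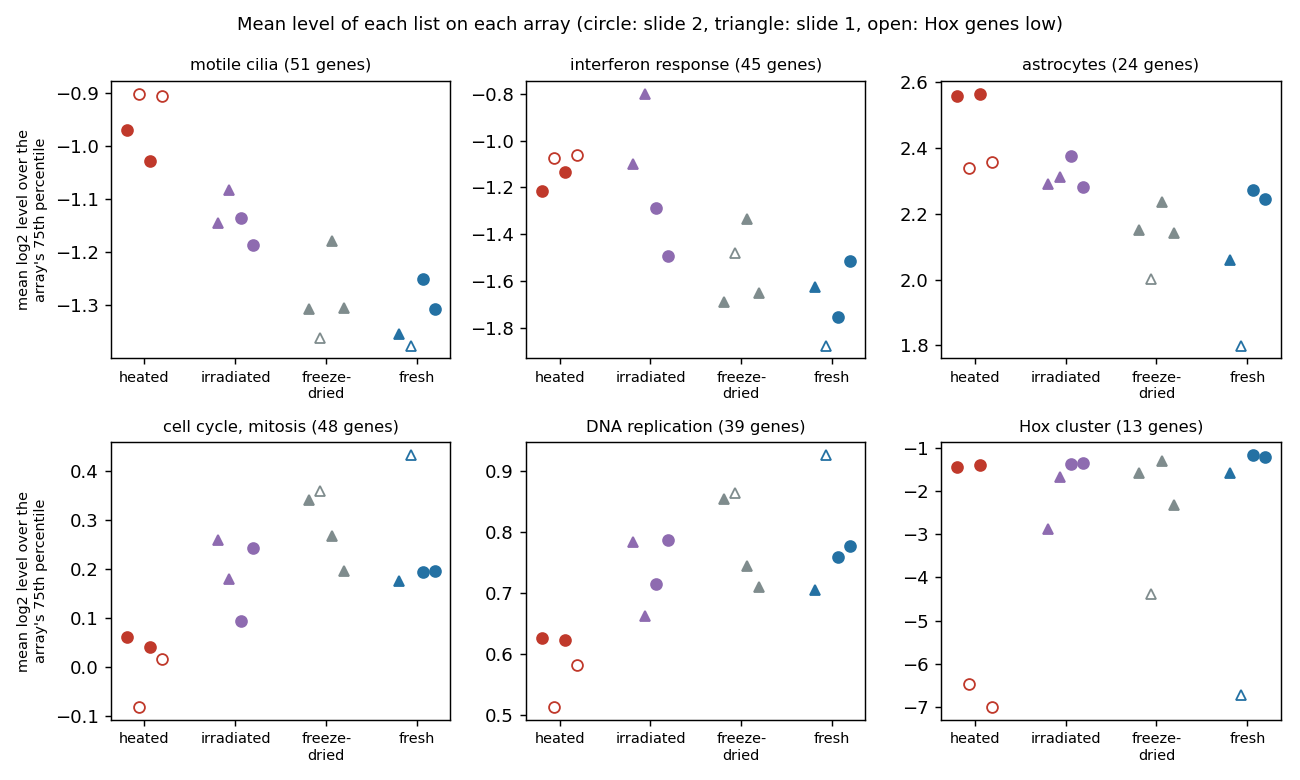
Mean log2 level over the array's 75th percentile for 6 lists on each of the 16 arrays, by group with heated at the left and fresh at the right, circles for slide 2, triangles for slide 1 and open symbols for brains low in Hox genes. Heated brains lie above all others for cilia genes and below all others for mitosis and replication genes, and overlap with irradiated brains for interferon genes. Open symbols mark brains with Hoxb5 under -4, and among them freeze-dried 2 still had 9 of 30 Hox genes above background.

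Markers of tissues and cells from around the brain were tested as lists of their own. None of 10 pituitary, 15 skin, 20 skeletal muscle, 17 sensory ganglion and eye, 16 leukocyte or 19 erythroid genes passed, against 2.93% of all genes. Lists this short can hold no changed gene at that share. A tissue present in a single brain also widens the spread of its genes, so these tests decide little. The median log2 difference of the muscle genes was -0.35, and -0.09 on slide 2 alone. Of 17 cartilage and bone genes, 3 rose and 1 fell, 23.5% against 2.93% of all genes. On the log2 scale the summed signal of the 25 skin genes spanned 4.55 to 4.62 on heated arrays, against 4.41 to 4.53 on fresh arrays. That of the 26 muscle genes spanned 2.70 to 2.75 on heated arrays, against 2.69 to 4.997 on fresh arrays, with the highest value in fresh 1. For the 22 pituitary genes the span was 5.29 to 5.90 on heated arrays, against 5.01 to 5.83 on fresh arrays, and the skin gene Krt5 and the pituitary gene Pou1f1 were above background on none of these 8 arrays. A fit that also took in the signal of Y-linked genes called 730 genes.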

How the data were processed

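Fluorescence intensity came from the deposited scanner files, in which the authors' Agilent Feature Extraction 11.0.1.1 had subtracted background and detrended each spot, per the file headers and the submitters' processing notes. The authors' deposited value table holds log2 signals whose making is not given in the sources used here, and served only as an alternative. Control spots and 2043 outlier spot values were left out, so that 50 probe values were missing and a fit drops them. log2 signals minus each array's 75th percentile were kept for probes well above background on every array of at least 1 group, and the brightest probe stood for a gene. Accessions were named through RefSeq (GRCm38.p6): 32994 of 56605 probes had a symbol. The 4 group means were fitted with limma 3.58.1 in R 4.3.3, after a test on simulated data.

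The members and gene lists were chosen with earlier results of these data known. Named genes have a RefSeq symbol and follow a rule. It takes, among changed genes, the 15 largest non-overlapping differences in each direction, up to 10 in each direction by p on slide 2, and up to 10 in each direction by their gap to the 12 other arrays. It adds up to 6 members per list by p, a short fixed set and the Y-linked genes. Tissue markers (Stmn2, Hoxb5, Pcp2, Acta1) describe the samples and stand outside the rule. Alternatives covered slide, replicate number, scaling, background correction, filter, sex and each array left out. Normexp used the median spot signal, as the files hold no mean. Array number limits the precision. Some genes that the rule names are not reported here.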

Additional observations from a re-analysis of the deposited data

Results flagged for a closer look

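In 20 of 206 groups of 4 values, 1 array stood far from the nearest of the other 3. Chance marks about 1 in 20 such groups. Among heated arrays, heated 1 was highest for Ifi27l2a at 0.481 and for Cdc20 at 1.61, and lowest for Pdgfra at 2.24. Heated 2 was highest for Fam166c at -0.824 and for Car9 at -2.69. Heated 3 was lowest for Insm1 at 3.19. Heated 4 was lowest for Nr4a1 at 1.87 and for Hapln1 at -2.69. Among fresh arrays, fresh 1 was highest for P2ry12 at -2.34 and for Orc1 at -3.19. Fresh 2, which is low in Hox genes, was highest for Ccdc153 at -1.81, Chaf1a at 0.0394, Ddn at -0.63, Hspa1b at -0.975, Cmtm2b at -1.71 and Xkr5 at -4.21, and lowest for Agt at -0.744. Fresh 4 was highest for Hes5 at 4.94 and for Gm1966 at -5.25, and lowest for Onecut3 at -1.87.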

How the results depend on the processing

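The count of 775 genes changed in heated against fresh brains depended on the fit. It was 129 at an adjusted p under 0.01, 406 with slide as a block, 42 with only the 8 heated and fresh arrays, 84 with median scaling, 267 of 45622 with no filter on dim probes, 312 of 24157 in the deposited value table and 322 without the arrays high in Gh. Leaving out 1 array at a time gave 254 to 1126. limma called 0 genes on slide 2 alone (3622 at an unadjusted p under 0.05), without the arrays low in Hox genes (2527), with slide and array row as blocks (2073), on slide 2 without the arrays low in Hox genes (4054) and with slide as a block without those arrays (2777). The replicate block also gave 0 (4063 at an unadjusted p under 0.05, smallest adjusted p 0.166). Replicate numbers share only a number: deviations of same-numbered heated and fresh arrays correlated at 0.208, 0.377, 0.201 and 0.0783, and 1 of 4 heated arrays correlated best with its own number. The causes were not tested. Quantile normalization (684), normexp (521), a filter over all 16 arrays (784), the mean of probes (686) and the Y-linked covariate (730) stayed within 1.5 times. Of 95 changed genes given with values, 94 kept their sign under every setting, though every setting reuses arrays by which they were chosen. The exception, Neurog2, was 0.0932 with slide and array row as blocks, where Mdm2 was 0.0754, Igf2 0.00242 and Cdkn1a 0.0587. Hspa1a turned to 0.0201 without the arrays low in Hox genes and 0.0157 on slide 2 without them. Cdkn1a was 0.0561 with slide as a block, 0.058 on slide 2, 0.0227 in the deposited table, 0.0363 without the arrays low in Hox genes, 0.0948 on slide 2 without them and 0.0916 with the slide block without them; leaving out 1 array gave -0.0705 to 0.00491. Probes near background give only bounds.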
